A study of Arabidopsis thaliana with 6 samples.

Results

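The sulfate transporters of Arabidopsis thaliana described here are 10 genes of the SULTR family, chosen by locus: SULTR1;1, SULTR1;2, SULTR1;3, SULTR2;1, SULTR2;2, SULTR3;1, SULTR3;4, SULTR3;5, SULTR4;1 and SULTR4;2. They are 10 of the 33977 gene IDs counted in each library, and all 10 passed the filter on low counts. Whole plants of the Col-0 accession, the common wild-type laboratory strain, were sequenced after 10 days at 22 °C with a daily cycle of 16 h light and 8 h dark. The 3 control samples, labelled Mock, grew on MS mineral medium at reduced strength, and the 3 treated samples grew on that medium with 1.5 mM CsCl, so the contrast is of plants raised with and without cesium. The labels do not say if samples of a group were grown apart, so the p-values below speak of the spread between these samples, which could be technical.

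Plants take up sulfur as sulfate from the soil, through proton-coupled transporters of the SULTR family. Group 1 has a high affinity, with a pair that works in the outer cells of the root and another member in the phloem. Group 2 moves sulfate within the vascular tissue, group 3 is found partly at the chloroplast envelope, and group 4 releases sulfate from the vacuole. Sulfate is then activated by ATP sulfurylase (APS) and reduced by APS reductase (APR) and sulfite reductase (SIR) on the way to cysteine, or passed by APS kinase (APK) to the sulfation reactions that finish glucosinolates. When sulfur is short, the transcription factor SLIM1 (EIL3) raises several transporters together with the microRNA miR395, which targets SULTR2;1 and ATP sulfurylases.

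The miR395 sequences and their sites are shown because they divide the transporters: among the 10, SULTR2;1 alone carried a close match. The 6 precursor genes in the RefSeq annotation of TAIR10.1 give 2 mature sequences with the same seed (bases 2 to 8, in capitals).

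ath-miR395a, d and e: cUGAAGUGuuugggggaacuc

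ath-miR395b, c and f: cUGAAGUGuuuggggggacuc

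Sites were searched without gaps in all annotated mRNAs, counting 1 for a mismatch and 0.5 for a G:U pair. The 4 sites below lie in coding sequence of TAIR10.1, and capitals mark bases that pair by Watson-Crick rules with ath-miR395a.

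SULTR2;1 (chr5:3193268-3193288, plus strand): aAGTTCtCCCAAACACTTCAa

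APS1 (chr3:8113164-8113184, plus strand): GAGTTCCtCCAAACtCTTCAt

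APS3 (chr4:8414958-8414978, minus strand): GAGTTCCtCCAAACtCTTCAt

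APS4 (chr5:17591121-17591141, minus strand): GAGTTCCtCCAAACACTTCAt

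The transporter's site scored 2.5, as did those in APS1 and APS3, and the site in APS4 scored 1.5. The best window in each of the other 9 transporters scored between 6.0 and 7.5. A score of 2.5 or less was found in 9 of 31342 genes with annotated mRNAs (0.0287%). The limit of 2.5 is the highest score among the sites shown, so it was set to include them. A match of letters is a description and does not show that a transcript was cleaved.

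With CsCl, 4 of the 10 transporters were lower and none was higher. These were SULTR2;1, the most abundant of them, the root uptake transporter SULTR1;2, and both vacuolar exporters, SULTR4;1 and SULTR4;2. Each fell by between 21.1% and 28.7%. Over all 21005 genes tested, 1.32% were lower and 0.843% higher, by edgeR's quasi-likelihood test with an adjusted p (Benjamini-Hochberg) under 0.05. The transporters and the gene lists below were chosen with earlier results of these data known. Setting their counts beside these shares is therefore a description and not a test. At an unadjusted p under 0.05 by edgeR, 5 transporters were lower and 1 higher. The shares above do not apply to counts at an unadjusted p, here or below. No share over all genes is given for those counts. DESeq2 and limma-voom each called 4 lower and 0 higher.

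The median log2 fold change of the 10 transporters was -0.24, beside 0.0052 for all genes tested. That median depends on which genes are listed. It leaves out the SULTR genes SULTR3;2 and SULTR3;3, whose log2 fold changes were above 0 (0.45 and 0.073). All 3 CsCl libraries lay below all 3 control libraries for 5 of the 10 transporters, a separation seen in 9.75% of genes tested. They lay above for 1, as in 10% of genes. Leaving out CsCl replicate 1 or CsCl replicate 2 left 2 transporters lower in place of 4.

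**Figure D1:**
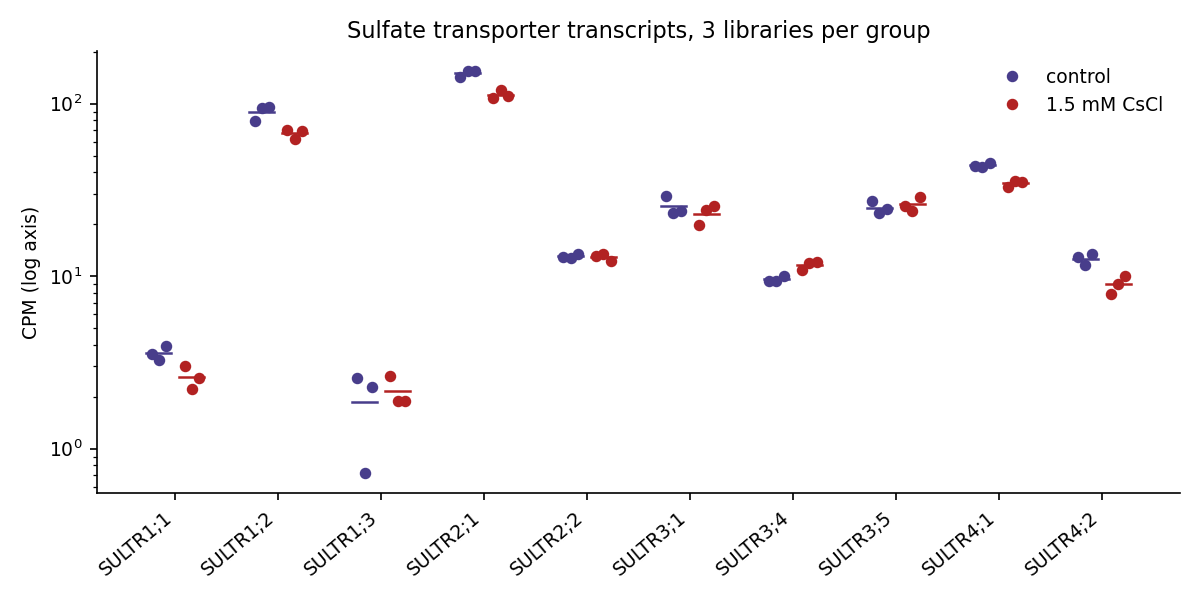
CPM (log axis) of the 10 sulfate transporters, where each point is 1 library and each bar a group mean (3 control in blue, 3 CsCl in red). For 5 genes, the 4 lower ones and SULTR1;1, all CsCl points lie below the control points, and for SULTR3;4 they lie above.

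Values are given in CPM, counts put on a common scale of library size, with mean ± SD over 3 libraries. Libraries held between 32075069 and 44108369 counts, CsCl replicate 3 being the deepest. In each library, even numbers made up from 65.5% to 73.4% of the values between 1 and 50, so both mates of a read pair appear to have been counted and a low count rests on fewer fragments than its value. In bulk samples such as these, fewer cells of a type and less RNA per cell cannot be told apart.

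Among group 1 transcripts the most abundant was that of SULTR1;2 (AT1G78000), known as the main sulfate uptake transporter of well-fed roots. It stood at 79.1, 94.5 and 95.6 CPM in controls and at 70.8, 62.4 and 69.1 CPM with CsCl. The groups did not overlap, although control replicate 1 lay closer to the CsCl libraries than to the other controls. The mean went from 89.7 ± 9.19 to 67.4 ± 4.46 CPM (log2 fold change -0.41 ± 0.077 SE, adjusted p = 0.0109 by edgeR). Leaving out CsCl replicate 2 took the adjusted p to 0.0929.

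SULTR1;1 (AT4G08620), the uptake transporter known for its strong induction by sulfur shortage, was scarce in every library. It stood at 3.53, 3.25 and 3.93 CPM in controls and at 3.03, 2.23 and 2.56 with CsCl, from 78 to 134 counts per library. All 3 CsCl libraries were below the controls, at a log2 fold change of -0.46 ± 0.18, but it did not pass the test (adjusted p = 0.257 by edgeR). Its 95% interval ran from -0.85 to -0.07 before adjustment.

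Within each library, the log2 level of the scarce member of this pair minus that of the abundant one was -4.63 ± 0.19 in controls and -4.67 ± 0.13 with CsCl. The difference of -0.044 gave a two-sided exact permutation p of 0.90, also 0.90 adjusted over the 3 pairs tested. With 3 against 3 libraries no p below 0.10 is possible, so this test could not have passed the threshold for any pair.

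The phloem transporter SULTR1;3 (AT1G22150) was at the bottom of the range. Controls stood at 2.56, 0.722 and 2.29 CPM and CsCl libraries at 2.65, 1.89 and 1.90, control replicate 2 holding 24 counts against 66 to 86 in the other 5 libraries. The groups overlapped (log2 fold change 0.20 ± 0.35, adjusted p = 0.845 by edgeR). The 95% interval, from -0.54 to 0.95, holds changes as large as those of the 4 lower transporters. Without control replicate 2 the log2 fold change was -0.187 (adjusted p = 0.793).

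SULTR2;1 (AT5G10180), a low-affinity transporter of xylem parenchyma and leaf veins that helps send sulfate from root to shoot, had the smallest adjusted p of the 10. Controls stood at 143, 154 and 155 CPM and CsCl libraries at 108, 119.8 and 110.3. The gap between the groups was wider than the spread within either. Its log2 fold change was -0.42 ± 0.061 (adjusted p = 0.0022 by edgeR), and it passed under all 17 alternative settings tried for it.

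The other group 2 gene, SULTR2;2 (AT1G77990), acts around the phloem of roots and the veins of leaves. It stood at 13.0, 12.7 and 13.5 CPM in controls and at 13.1, 13.5 and 12.3 with CsCl. The groups overlapped, at a log2 fold change of -0.013 ± 0.087 (95% interval -0.20 to 0.17, adjusted p = 0.965 by edgeR). Of its 2335 exonic bases, 663 are shared with the long noncoding RNA gene AT1G77992 on the opposite strand. That gene has 686 exonic bases and had 0 counts in every library. As the strand setting of the counting is not known here, that 0 does not show that no reads came from the shared stretch. The level of SULTR2;2 could depend on this setting too.

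The log2 ratio of the first group 2 gene to the second was 3.46, 3.60 and 3.52 in controls and 3.04, 3.15 and 3.16 with CsCl, with no overlap. The difference of -0.41 had a two-sided exact permutation p of 0.10, the smallest that 3 against 3 allows, and 0.30 adjusted over the 3 pairs, so it could not reach the threshold in this design.

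The genes AT1G77990 and AT1G78000, of group 2 and group 1, are neighbours on chromosome 1. In TAIR10.1 they point away from each other, with 4162 bases between them. The percent change of the first was -0.883 and that of the second, which passed the test, was -24.8.

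**Figure D2:**
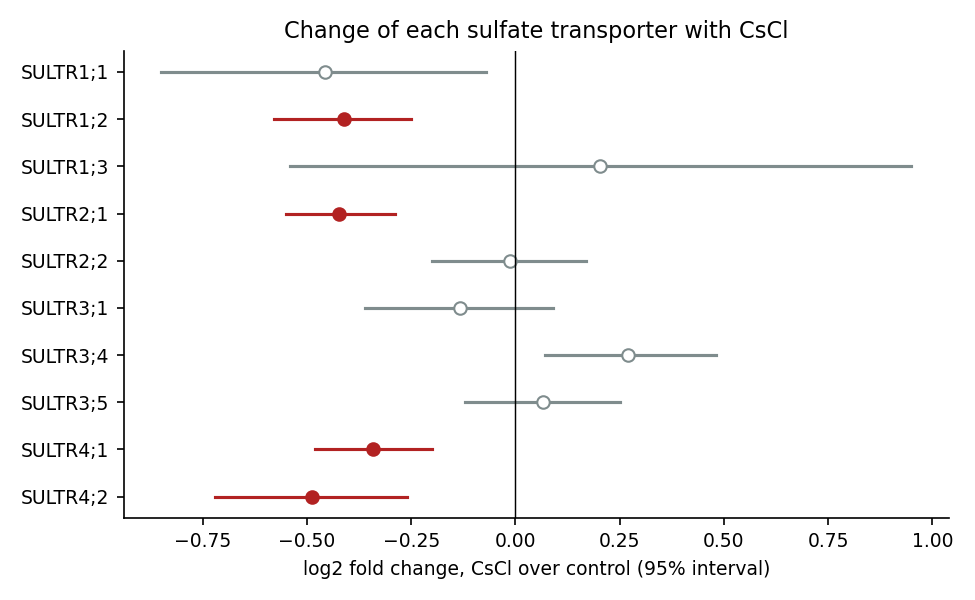
Log2 fold change, CsCl over control, of each transporter with its unadjusted 95% interval, where filled red points passed the edgeR test and open points did not. The 4 filled points lie between -0.34 and -0.49, while SULTR2;2 lies at -0.013.

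None of the 3 group 3 transporters among the 10 passed the test. SULTR3;1 (AT3G51895), which carries sulfate into chloroplasts, stood at 29.0, 23.3 and 23.8 CPM in controls and at 19.7, 24.1 and 25.4 with CsCl. These ranges overlapped (log2 fold change -0.13 ± 0.10, adjusted p = 0.618 by edgeR). The log2 fold change was -0.0275 without control replicate 1 and -0.0354 without CsCl replicate 1. SULTR3;5 (AT5G19600), which assists AT5G10180 in root-to-shoot transport, stood at 27.4, 23.1 and 24.4 CPM in controls and at 25.6, 24.0 and 28.7 with CsCl. Its groups overlapped too (log2 fold change 0.066 ± 0.087, adjusted p = 0.787 by edgeR).

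SULTR3;4 (AT3G15990), described in Arabidopsis as a distributor of phosphorus, was the single transporter with all 3 CsCl libraries above the controls. It stood at 9.44, 9.39 and 10.0 CPM in controls and at 10.8, 11.9 and 12.1 with CsCl. Its log2 fold change was 0.27 ± 0.095 with a 95% interval from 0.07 to 0.48, and it did not pass (adjusted p = 0.199 by edgeR). It shares 140 transcribed bases with AT3G16000 on the opposite strand, which stood at 147 ± 0.492 CPM in controls and 133 ± 5.92 CPM with CsCl. Whether the counting used strand is not known here, so reads from that stretch cannot be assigned to one of the genes.

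Both vacuolar exporters were lower. SULTR4;1 (AT5G13550), the more abundant, stood at 43.4, 42.8 and 45.4 CPM in controls and at 32.7, 35.8 and 35.3 with CsCl. Neither group's spread came near the gap between them. Its log2 fold change was -0.34 ± 0.064 (adjusted p = 0.0113 by edgeR), and leaving out CsCl replicate 1 took the adjusted p to 0.0567.

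SULTR4;2 (AT3G12520), the partner known to respond to sulfur supply, stood at 12.9, 11.6 and 13.4 CPM in controls and at 7.93, 8.96 and 9.99 with CsCl. It had the largest drop of the 10 fitted values, a log2 fold change of -0.49 ± 0.11 (adjusted p = 0.0306 by edgeR), and of the 4 calls it was lost under the most alternatives. The adjusted p was 0.0516 without control replicate 1, 0.104 without control replicate 3, 0.108 without CsCl replicate 1, 0.136 without CsCl replicate 2 and 0.0591 when libraries were scaled by total counts alone. Of its 2442 exonic bases it shares 7 with AT3G12510 and 23 with AT3G02545 on the opposite strand, and 7 with AT3G02535 on its own strand. AT3G02545 had at most 6 counts in a library and the other two had 0.

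The log2 ratio of the abundant exporter to the scarce one was 1.80 ± 0.071 in controls and 1.95 ± 0.12 with CsCl. The difference of 0.15 had a two-sided exact permutation p of 0.20, and 0.30 adjusted over the 3 pairs. With 3 against 3 libraries no p below 0.10 is possible, so this test cannot decide whether the 2 exporters differ in their change.

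Sequence likeness between members bears on whether their reads can be told apart. The closest transcripts, those of the 2 exporters, were 84.9% identical over 1846 aligned bases. The phloem member of group 1 was 80.4% identical to AT1G78000 over 1984 bases, the 2 root uptake genes were 73.4% identical over 1723, and the 2 group 2 genes 68.7% over 1426. No alignment of at least 100 bases at 95% identity or more was found to another gene's transcript, except the overlap of AT3G15990 with AT3G16000. The core of the sulfur-responsive promoter element SURE, GAGAC, occurred on either strand in 32.8% of 27443 protein-coding promoters (250 bases before to 50 after the annotated start in TAIR10.1) and in 0 of the 10 transporter promoters. That says only that these letters are not in those windows.

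Levels between genes can be compared only per length, here as CPM per kilobase of joined exons (RPKM). SULTR2;1 led in controls at 59.0 ± 2.65 RPKM, followed by SULTR1;2 at 21.4 ± 2.19 and SULTR4;1 at 18.3 ± 0.559, and the ranges of the latter pair overlapped. SULTR3;5 at 10.6 ± 0.930 and SULTR3;1 at 10.4 ± 1.29 overlapped, as did SULTR2;2 at 5.59 ± 0.169 and SULTR4;2 at 5.17 ± 0.373. SULTR3;4 at 4.23 ± 0.153, SULTR1;1 at 1.51 ± 0.146 and SULTR1;3 at 0.738 ± 0.394 RPKM closed the order without overlap.

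The main uptake gene AT1G78000 has 7 annotated mRNAs whose joined exons span 4193 bases, so its level depends on the length used. With the median mRNA length of 2763 bases, an alternative added after seeing the data, it stood at 32.5 ± 3.33 RPKM in controls. On that measure SULTR4;1 stayed at 18.3 ± 0.559, and SULTR4;2 at 5.80 ± 0.419 came ahead of SULTR2;2 at 5.59 ± 0.169. The control shares of SULTR1;2 and SULTR2;1 were then 21.8% and 39.6%, beside 15.6% and 43.1% with joined exons. With CsCl and joined exons, the phosphorus distributor moved ahead of the scarce exporter, at 5.10 ± 0.293 against 3.67 ± 0.420 RPKM. The ranges of the 2 scarcest transporters then overlapped.

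**Figure D3:**
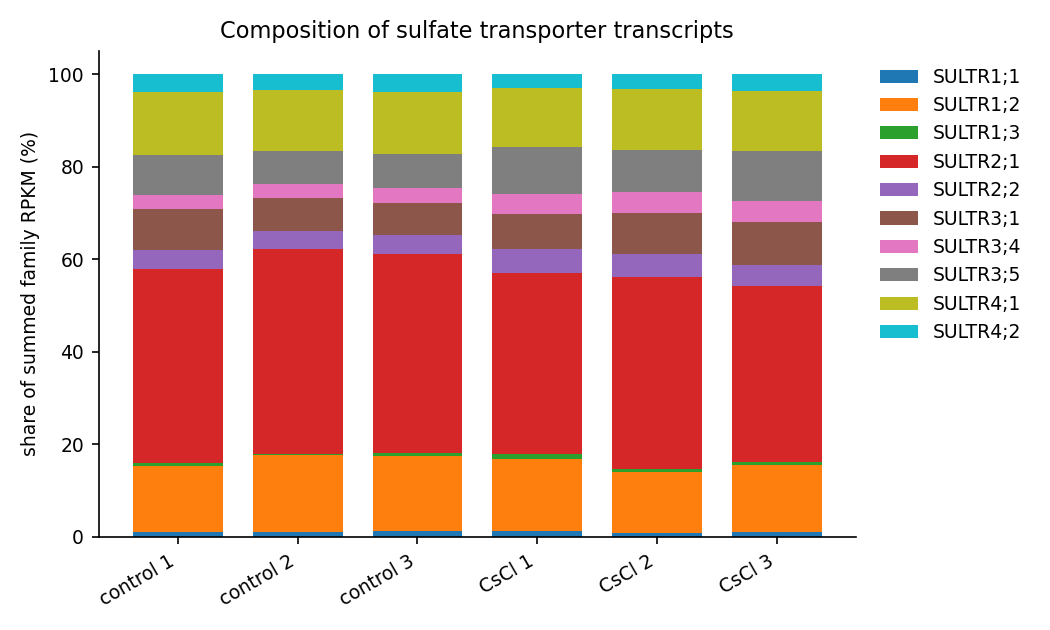
Share (%) of each transporter in the summed RPKM of the 10, per library, stacked from the bottom in the order of the legend. SULTR2;1 (red) makes up 43.1% ± 1.29 in controls and 39.5% ± 1.74 with CsCl.

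Summed over the 10 genes, transporter transcripts stood at 134, 136 and 141 RPKM in controls and at 108, 113 and 113 with CsCl. The groups did not overlap, and the percent change of their means was -18.7. Leaving out the most abundant gene, the sum went from 77.9 ± 2.17 to 67.3 ± 2.66 RPKM. That gene held 41.8%, 44.3% and 43.1% of the sum in controls and 39.2%, 41.4% and 38.0% with CsCl. The share of SULTR3;4 went from 3.09% ± 0.0494 to 4.57% ± 0.132 and that of SULTR3;5 from 7.75% ± 0.809 to 9.94% ± 0.874. SULTR4;1 held 13.4% ± 0.213 in controls and 13.0% ± 0.267 with CsCl. These sums and shares are descriptions and were not tested.

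Of 4 other genes of the wider family, 3 had enough counts to test and none passed. SULTR3;2 and SULTR3;3 are group 3 SULTR genes too, and the counts, median and sums over the 10 leave them out. SULTR3;2 stood at 3.03 ± 0.468 CPM in controls and 4.15 ± 0.455 CPM with CsCl, the groups not overlapping (log2 fold change 0.45 ± 0.17, adjusted p = 0.241 by edgeR). SULTR3;3 stood at 23.7 ± 2.42 and 25.0 ± 0.917 CPM (log2 fold change 0.073 ± 0.082, adjusted p = 0.745). The molybdate transporter MOT1 stood at 4.28 ± 1.28 and 3.97 ± 0.392 CPM (log2 fold change -0.10 ± 0.20, adjusted p = 0.867). MOT2 had 0 counts in every library. A count of 0 allows up to 0.185 CPM in the shallowest (3 fragments, each counted by both mates), for counting error only. At an unadjusted p under 0.05 there was 1 gene, and DESeq2 and limma-voom each called 0.

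Enzymes of sulfate activation and reduction, the steps after transport, had 6 of 12 genes lower and none higher (median log2 fold change -0.33). The APS kinase gene APK2 stood at 122, 103 and 119 CPM in controls and at 73.5, 81.4 and 80.3 with CsCl (log2 fold change -0.55 ± 0.071, adjusted p = 0.000879 by edgeR). APR1, an APS reductase gene, stood at 141, 118 and 146 CPM in controls and at 94.4, 85.2 and 98.8 with CsCl (log2 fold change -0.54 ± 0.080, adjusted p = 0.00255). APK1 fell from 103 ± 9.95 to 76.7 ± 3.26 CPM (adjusted p = 0.0052). The groups of these 3 genes did not overlap. Leaving out any 1 of the CsCl libraries left 3 genes of the list past the test.

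Of the 9 genes with a miR395 score of 2.5 or less, SULTR2;1, APS1 and APS3 were lower and the other 6 did not pass, 5 of which are outside the sulfur lists. Those 5 had log2 fold changes of -0.28 ± 0.13 for AT2G28780, -0.14 ± 0.061 for the laccase gene LAC7, -0.066 ± 0.067 for the chlorophyll synthesis gene GUN5, 0.024 ± 0.10 for AT4G23840 and 0.52 ± 0.27 for AT1G50930, with adjusted p from 0.305 to 0.945 by edgeR. APS1, an ATP sulfurylase gene, stood at 507, 448 and 523 CPM in controls and at 382, 392 and 389.8 with CsCl (log2 fold change -0.35 ± 0.065, adjusted p = 0.0115 by edgeR). APS3 fell from 26.4 ± 2.46 to 20.3 ± 0.524 CPM (adjusted p = 0.0253). Neither had overlapping groups.

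APS4, with a score of 1.5 as for AT2G28780, had all CsCl libraries above the controls, at 52.8, 62.8 and 61.9 CPM in controls and 67.7, 69.4 and 70.0 with CsCl (log2 fold change 0.22 ± 0.069, adjusted p = 0.135 by edgeR). APS1 did not pass without any 1 of the CsCl libraries (adjusted p from 0.0528 to 0.0781). APS3 did not pass when any library other than control replicate 2 was left out (0.058 to 0.144) or with scaling by total counts alone (0.0596). The 6 miR395 precursor genes held at most 2 counts in any library, and 3 of them had 0 counts in all 6, so their change could not be tested.

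Among sulfur-deficiency response genes 5 of 11 were lower and none higher, with a median log2 fold change of -0.34. SDI1, which represses glucosinolate synthesis when sulfur is short, stood at 25.5, 21.2 and 29.8 CPM in controls and at 10.8, 9.17 and 13.5 with CsCl (log2 fold change -1.19 ± 0.14, adjusted p = 0.000396 by edgeR). LSU3, a low-sulfur marker, stood at 11.9, 9.42 and 11.6 CPM in controls and at 5.40, 3.61 and 6.41 with CsCl (adjusted p = 0.00382). The groups of neither gene overlapped, and the log2 fold change of LSU3 was -1.08 ± 0.17.

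SHM7, a hydroxymethyltransferase-type gene that responds to sulfur supply, fell from 74.3 ± 5.95 to 57.3 ± 3.67 CPM (adjusted p = 0.0115 by edgeR, and 0.0979 without CsCl replicate 2). The list had 3 genes past the test without control replicate 3 or CsCl replicate 1, 2 without CsCl replicate 2, and 3 with robust estimation.

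Cysteine and glutathione synthesis, the steps that follow reduction, had 0 of 10 genes past the edgeR test, with 3 at an unadjusted p under 0.05 and 0 each with DESeq2 and limma-voom. The glutathione synthesis gene GSH1 stood at 294 ± 15.4 CPM in controls and 264 ± 2.21 CPM with CsCl (adjusted p = 0.238 by edgeR). The cysteine synthase gene OASC stood at 49.8 ± 3.66 and 44.0 ± 4.19 CPM (adjusted p = 0.313) and the serine acetyltransferase gene SERAT2;1 at 70.0 ± 7.03 and 62.3 ± 3.57 CPM (adjusted p = 0.320). The median log2 fold change over these 10 was -0.053.

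**Figure D4:**
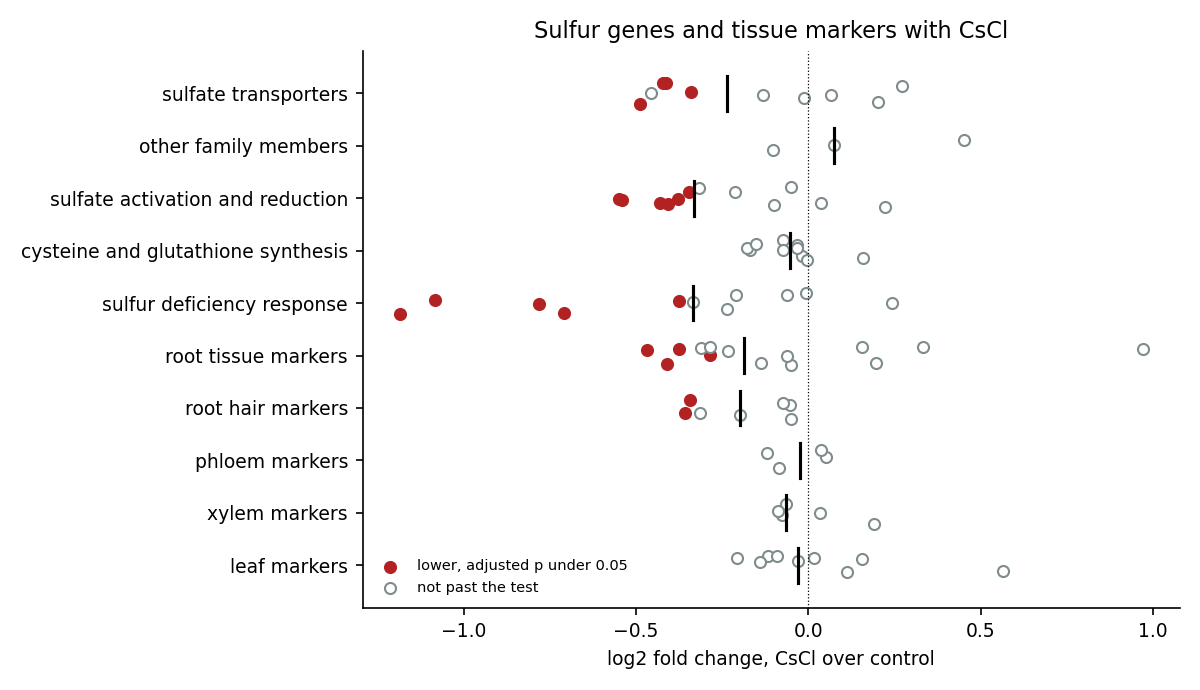
Log2 fold change, CsCl over control, of the tested members of each gene list, where filled red points were lower by the edgeR test, open points did not pass, and black bars are list medians. The 10 transporters (median -0.24), sulfate activation and reduction enzymes (-0.33) and sulfur-deficiency genes (-0.34) lie left of the phloem (-0.025), xylem (-0.064) and leaf markers (-0.030), with root tissue (-0.18) and root hair markers (-0.20) between. The other family members, which include SULTR3;2 and SULTR3;3, have a median of 0.073.

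Markers of root and of leaf were both present, in keeping with whole plants. The 14 root tissue markers included 4 that were lower and 0 that were higher, at a median log2 fold change of -0.18. Their summed level ran from 5907 to 6235 CPM in controls and from 4546 to 5081 CPM with CsCl, and none was at 0. PYK10, a root-abundant beta-glucosidase gene that makes up most of that sum, stood at 5819, 5604 and 5941 CPM in controls and at 4807, 4311 and 4269 with CsCl (adjusted p = 0.0084 by edgeR, and 0.0873 without CsCl replicate 2). PHO1, a gene of phosphate loading into the xylem, stood at 109 ± 2.18 and 105 ± 8.09 CPM (adjusted p = 0.721). The lower root tissue markers numbered 2 without control replicate 2, control replicate 3 or CsCl replicate 3, 1 without CsCl replicate 2, and 2 with scaling by total counts alone.

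The 7 root hair markers included 2 that were lower and 0 that were higher, at a median log2 fold change of -0.20. They summed to between 317 and 324 CPM in controls and between 240 and 289.9 CPM with CsCl, and none was at 0. PRP3, a root hair cell wall protein gene, stood at 145 ± 5.56 and 113 ± 14.7 CPM (adjusted p = 0.032 by edgeR), and LRX1, another, at 58.9 ± 2.58 and 51.4 ± 3.73 CPM (adjusted p = 0.174). PRP3 did not pass without control replicate 3, CsCl replicate 2 or CsCl replicate 3 (adjusted p of 0.0848, 0.20 and 0.14) or with total counts alone (0.0612). The list had 1 gene past the test without any 1 of the control libraries, and 0 without CsCl replicate 2 or 3 and with total counts alone. Of the tested markers, 10 of 14 root tissue and 7 of 7 root hair genes had a log2 fold change below 0. Most of these did not pass, and 48.6% of all genes tested were below 0. The summed levels of both lists lay lower in all 3 CsCl libraries, as the 4 lower transporters did. The part of root markers in the transporter result was not tested.

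Vascular and leaf markers had no gene past the test with edgeR, DESeq2 or limma-voom. The 4 phloem markers summed to between 338 and 368 CPM in controls and between 349 and 369 CPM with CsCl. Among them SUC2, the sucrose loader of phloem companion cells, stood at 137 ± 0.679 and 142 ± 8.48 CPM and the proton pump gene AHA3 at 153 ± 12.6 and 157 ± 0.863 CPM. The 5 xylem markers summed to between 187 and 218 CPM in controls and between 189 and 203 CPM with CsCl, with the xylem peptidase genes XCP2 at 81.7 ± 8.09 and 76.9 ± 5.78 CPM and XCP1 at 48.5 ± 4.98 and 46.0 ± 2.02 CPM. Phloem and xylem sums overlapped between the groups. So did the levels of SULTR2;2 and of the phloem transporter SULTR1;3, while those of the vascular transporter SULTR2;1 did not. The part of vascular tissue in the transporter result was not tested.

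The 9 leaf markers summed to between 38928 and 43706 CPM in controls and between 36286 and 38596 CPM with CsCl. They were led by the antenna gene LHCB1.3, at 14751 ± 1524 and 12779 ± 707 CPM, and the Rubisco gene RBCS1A, at 11059 ± 197 and 10830.1 ± 162 CPM. The leaf sums, like the root sums, lay lower in all 3 CsCl libraries, and their part in the transporter result was not tested. Of the 9 leaf markers, 5 had a log2 fold change below 0 and 4 above. The 4 above were GL1 (0.564), FAMA (0.155), FIL (0.111) and YAB3 (0.015). Each had a control mean of 36.6 CPM or less, so the sums hardly reflect them. At an unadjusted p under 0.05, 0 phloem and 0 xylem markers passed, along with 2 leaf markers, LHCB1.3 lower and the trichome gene GL1 higher (1.39 ± 0.174 CPM in controls, 2.06 ± 0.477 with CsCl).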

How the data were processed

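Poly(A) libraries were strand-specific, per the labels' protocols. The deposited values are raw counts of reads per gene, 1 table for each sample, and the submitters' processing notes name STAR, featureCounts and TAIR10. Tool versions, the annotation, the strand setting and the treatment of multi-mapped reads were not given in the sources used here. Every file lists the same 33977 IDs.

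The members and gene lists were chosen with earlier results of these data known. All list loci are in the TAIR10.1 gene table. Named genes were all 10 transporters, the 3 genes with the smallest adjusted p in each pathway list and the 2 most abundant in each marker list. Genes named for miR395 sites or for overlap with a transporter, and GL1, were chosen after the values were seen.

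Testing used edgeR 4.0.16 (R 4.3.3) with filterByExpr, which kept 21005 genes, TMM factors of 0.961 to 1.03, a quasi-likelihood model with the group as sole term, and Benjamini-Hochberg adjustment over all genes tested, at 0.05. A standard error (SE) was taken as the unshrunk coefficient, without sign, over the root of F. Fold changes are CsCl over control. CPM use TMM-scaled library sizes and RPKM joined exons in TAIR10.1. On counts simulated for this comparison, with 20865 genes tested, the model called 39 of 50 genes raised 1.5-fold and 45 of 50 raised 2-fold. It called 50 of 50 raised 4-fold, 47 of 49 lowered to 0.5-fold and 3 of 20666 unchanged ones. No change as small as those of the 4 lower transporters was simulated. Replicates differed by more than sampling noise (chi-square per gene of 6.39 to 13.1). Paralog ratios used log2 CPM with a prior count of 2. Alternatives used limma 3.58.1 and DESeq2 1.42.0, and transcripts were compared with BLAST 2.17.0.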

Additional observations from a re-analysis of the deposited data

How the results depend on the processing

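All 4 lower transporters kept their direction under all 17 alternatives, and SULTR2;1 kept its call in each. The lower count ranged from 2 to 4 when 1 library was left out and was 3 with total counts only and 4 under the other alternatives; the higher count was 0 throughout. With total counts only, all genes lower numbered 180, root tissue markers past the test 2 and root hair markers 0; with no filter, 518 genes were lower and 301 higher; with robust estimation 3 sulfur-deficiency genes passed. When 1 library was left out, genes lower ranged from 90 to 330 and genes higher from 89 to 231, sulfate activation and reduction from 3 to 6, sulfur-deficiency genes from 2 to 5, root tissue markers from 1 to 3 and root hair markers from 0 to 2. Replicate numbers did not pair the samples (correlations of same-numbered deviations -0.077, 0.039 and -0.010). In the fit blocked on replicate number (replicate block), 146 genes were higher and 210 lower, the transporters had 4 lower, and 1 root tissue marker passed, PYK10 not among those past the test (adjusted p = 0.0556). Log2 fold changes near 0 turned sign: SULTR1;3 to -0.187 and MOT1 to 0.0956 without control replicate 2, SULTR3;5 to -0.0151 without CsCl replicate 3, SULTR2;2 to 0.0031 with upper-quartile factors, 0.0262 with total counts only, 0.00682 without control replicate 3 and 0.0193 without CsCl replicate 3, SUC2 to -0.000406 without CsCl replicate 2, AHA3 to -0.0131 without control replicate 2, and RBCS1A to 0.00804 with total counts only. Leaving out 1 library at a time, the log2 fold change ranged from -0.187 to 0.497 for SULTR1;3, -0.0427 to 0.0193 for SULTR2;2, -0.215 to -0.0275 for SULTR3;1, -0.0151 to 0.136 for SULTR3;5, -0.32 to 0.0956 for MOT1, -0.000406 to 0.0722 for SUC2 and -0.0131 to 0.103 for AHA3. The difference in the SULTR1;1 to SULTR1;2 ratio ranged from -0.149 to 0.038 when 1 library was left out, 0.038 without control replicate 1 and 0.005 without CsCl replicate 2; the SULTR2;1 to SULTR2;2 difference ranged from -0.445 to -0.373. The causes were not tested. With halved counts SULTR1;1 was at -0.461 and SULTR1;3 at 0.192.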
